A study of Homo sapiens with 6 samples.

Results

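The genes described are 6 cadherins (CDH11, CDH1, CDH2, CDH3, CDH13 and CDH19) and 4 catenins (CTNNB1, CTNNA1, CTNND1 and JUP), taken by gene symbol from the 25438 rows with a symbol. Each of the 10 had 1 row, and 8 passed the detection filter into the 12345 genes tested, CDH1 and CDH19 being the exceptions. The cells were A375, an established human melanoma line, in DMEM with serum, and the comparison is between a culture medium with 25 µM leflunomide and one with DMSO, the solvent, for 3 days. Total RNA was measured on 3 Illumina bead arrays per treatment, where a fluorescent signal is read from beads that carry a gene's probe. Leflunomide is a drug that blocks dihydroorotate dehydrogenase, an enzyme of pyrimidine nucleotide synthesis. The labels do not say whether the arrays of a treatment came from separate flasks, and the p-values therefore cover the spread between arrays alone, which may be technical. CDH11 was picked because it was higher with leflunomide in this same comparison, so its difference is a description and carries no test. The others were picked as its relatives.

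Cadherins are calcium-dependent adhesion proteins that span the membrane and bind cadherins on neighbouring cells. Their cytoplasmic tails hold p120-catenin (CTNND1) and either beta-catenin (CTNNB1) or plakoglobin (JUP), and alpha-catenin (CTNNA1) connects the complex to actin. Normal melanocytes adhere to keratinocytes through E-cadherin (CDH1), and many melanomas carry N-cadherin (CDH2) instead. Beta-catenin outside the junction also acts as the coactivator of TCF/LEF transcription factors in Wnt signalling.

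Leflunomide replicate 3 stood apart, so most results are given with and without it. Its mean signal was 128.9, against 261.7 to 370.5 on the others, and the mean inferred for its negative control beads was 36.8, against 56.5 to 59.6. It had 11816 detected rows, against 13235 to 14020. Its normalized log2 values had correlations across genes of 0.888 to 0.900 with the rest, while any other pair of arrays reached 0.988 to 0.997. Melanocyte markers were partly present. A row that averages several probes carries a p-value that is not a rank of its signal, so such rows are read through their probes where these could be traced. Of 10, SOX10 and S100A1 were detected on every array, as were both brighter probes of MITF, and PMEL on 4 of 6, while MLANA, TYR, DCT and S100B were detected on none. The averaged rows of PAX3 and EDNRB could not be traced to probes. The summed signal of all 10 melanocyte markers was 2476 to 3075 with DMSO and 778.6 to 2570 with leflunomide. SOX10 was the largest part, at 1719 to 2264 with DMSO. Of the markers of other cells, 4 of 8 for keratinocytes, 6 of 8 for fibroblasts, 2 of 6 for endothelium and 3 of 6 for leukocytes had a row p under 0.05 on at least 1 array. KRT5, TP63, THY1, VWF, KDR and CD3E were detected on none. KRT10, KRT14, KRT15, PDGFRB and CD68 had a row p under 0.05 on every array. With DMSO, KRT10 read 1829 to 2676 and CD68 1123 to 1493. Summed signals were 2469 to 3380 with DMSO and 714.4 to 2090 with leflunomide for the keratinocyte list. The same ranges were 681.4 to 787 and 382.4 to 770.9 for fibroblasts, 373.7 to 403.6 and 223.2 to 407.6 for endothelium, and 1456 to 1853 and 532.9 to 1111 for leukocytes. All these sums are of raw signals, with no adjustment for the dimness of leflunomide replicate 3. PMEL, the melanosome matrix gene, was detected on 1 of 3 leflunomide arrays and fell (limma adjusted p = 0.032). Without leflunomide replicate 3, 2 of 4 keratinocyte, 2 of 5 fibroblast and 2 of 3 leukocyte markers tested fell and 1 fibroblast marker rose, in a fit that called 19.6% of all genes, 9.51% higher and 10.1% lower. Their part in the results below was not tested.

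Promoter sequences of 3 cadherin genes are shown because the results turn on them and the RefSeq table used here holds them. CDH19 and its relative CDH10 read lower with leflunomide, and CDH2 read slightly higher after normalization. Of the 10 genes, 5 had an entry (CDH2, CDH19, CTNNB1, CTNNA1 and JUP). Each window runs from 250 bases before to 50 bases after a transcription start, 5′ to 3′ on the gene's strand, on build GRCh38.p14. All 3 lie on the minus strand, at chr18:66604041-66604340 for CDH19, chr5:24644929-24645228 for CDH10 and chr18:28177081-28177380 for CDH2. Capitals mark matches to CANNTG, the E-box bound by basic helix-loop-helix and Snail family factors.
CDH19: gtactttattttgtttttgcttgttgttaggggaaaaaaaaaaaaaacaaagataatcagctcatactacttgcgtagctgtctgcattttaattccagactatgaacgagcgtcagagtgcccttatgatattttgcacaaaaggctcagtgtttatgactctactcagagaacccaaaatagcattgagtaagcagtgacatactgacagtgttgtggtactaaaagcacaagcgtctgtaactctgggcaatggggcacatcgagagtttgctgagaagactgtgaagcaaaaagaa
CDH10: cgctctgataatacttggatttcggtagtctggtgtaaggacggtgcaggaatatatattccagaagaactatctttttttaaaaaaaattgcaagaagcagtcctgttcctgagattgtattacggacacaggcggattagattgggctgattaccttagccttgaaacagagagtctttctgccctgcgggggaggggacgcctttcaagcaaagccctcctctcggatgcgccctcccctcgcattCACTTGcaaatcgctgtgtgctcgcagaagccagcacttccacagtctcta
CDH2: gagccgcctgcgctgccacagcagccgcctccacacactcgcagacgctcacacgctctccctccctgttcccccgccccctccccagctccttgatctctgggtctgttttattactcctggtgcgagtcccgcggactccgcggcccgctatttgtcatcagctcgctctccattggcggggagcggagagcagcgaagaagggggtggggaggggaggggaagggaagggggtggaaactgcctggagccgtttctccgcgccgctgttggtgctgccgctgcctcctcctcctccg
GC content was 39.3% for CDH19, 48.3% for CDH10 and 67.0% for CDH2, where the median of 35116 promoter windows was 58.7%. The search covered both strands. CANNTG matched once in the CDH10 window, with its first base at position −1 from the start, and not in the other windows printed, while 68.7% of all windows hold it. The Snail-type form CAGGTG, or CACCTG on the other strand, which is a special case of CANNTG, was in none of the 3 windows and in 20.6% of all. The TCF/LEF motif CTTTGAT, read as ATCAAAG on the other strand, was also in none, against 2.62%. TATAAA, read as TTTATA on the other strand, was in none, against 11.5%. A further CDH2 window in the table, chr18:28036592-28036891, had a GC content of 40.7%, with 1 CANNTG and 1 TATAAA.

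CDH11 encodes OB-cadherin, a type II cadherin of mesenchymal cells and osteoblasts. Its signals were 114.4, 145.2 and 118.3 on the DMSO arrays and 162.8, 206.4 and 76.69 on leflunomide arrays 1 to 3. Detection p-values, the rank of a signal among the negative control beads, were 0 to 0.0026, so the gene was detected on every array. The raw signal was higher on leflunomide replicates 1 and 2 than on all DMSO arrays and lowest on replicate 3, the dim array. Divided by each array's negative control mean, the signals were 2.01, 2.46 and 2.01 with DMSO and 2.88, 3.46 and 2.08 with leflunomide.

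After background correction and quantile normalization, the log2 values of CDH11 were 6.06, 6.22 and 6.09 with DMSO and 7.20, 7.12 and 7.17 with leflunomide. On this scale the groups did not overlap, and all 3 leflunomide values lay within a narrower range than the DMSO values. The DMSO mean was 6.12 ± 0.085 (SD, n = 3), and the leflunomide mean 7.17 ± 0.040 (SD, n = 3). The log2 difference of 1.04 ± 0.10 (SE) corresponds to a 2.06-fold higher level, or 2.05-fold without leflunomide replicate 3. In bulk RNA, more cells with the transcript and more transcript per cell cannot be told apart. The size of the difference moved with the background step and with the normalization. It was 0.67 with no background correction, 0.18 when the control parameters were taken from all rows, and 0.39 under median scaling, where the median of all genes was −0.53 and CDH11 lay 0.91 above it.

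**Figure D1:**
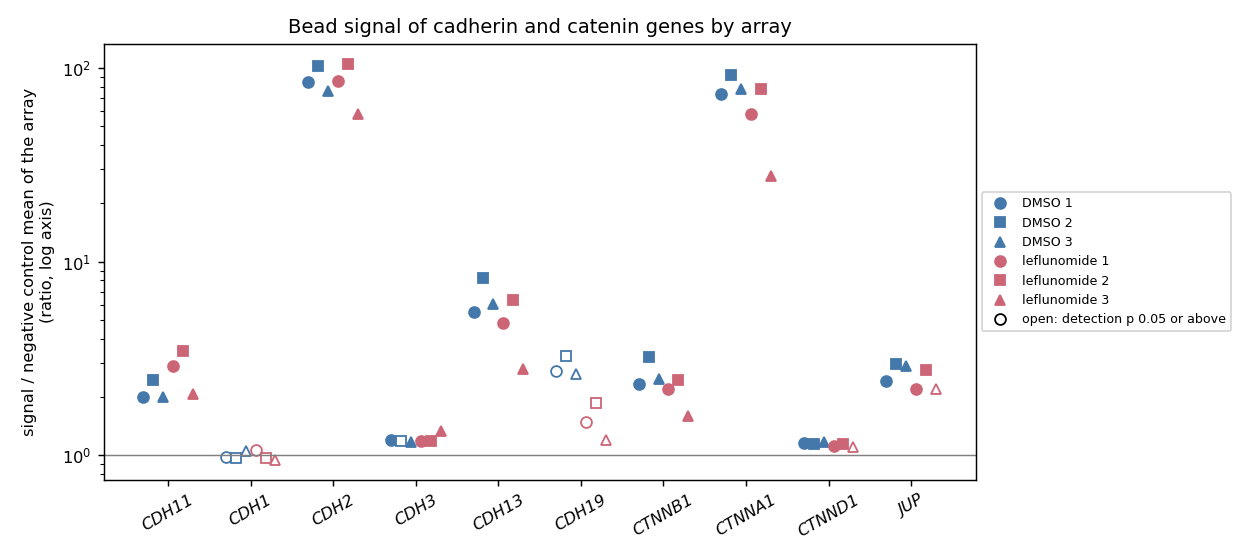
Deposited bead signal of each gene divided by the mean of the array's negative control beads (ratio without unit, log axis), 1 point per array, blue for DMSO and red for leflunomide, with open points where the detection p of the row was 0.05 or above (not a rank for CDH19, CTNNB1, CTNND1 and JUP, whose rows average probes). CDH11 is at 2.01 to 2.46 on the DMSO arrays and at 2.88, 3.46 and 2.08 on leflunomide arrays 1 to 3, the last within the DMSO range. CDH1 lies at the control mean (line at 1), and heights of different genes are not comparable because each has its own probe.

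CDH2 encodes N-cadherin, the classical cadherin of neural and mesenchymal cells. It was bright on every array, at 4783, 6048 and 4472 with DMSO and at 4842, 6263 and 2139 with leflunomide. The raw ranges overlapped, while the normalized log2 values of 12.03, 12.17 and 11.99 with DMSO all lay under the 12.43, 12.32 and 12.37 of the leflunomide arrays. CDH2 was 1.24-fold higher (log2 0.31 ± 0.10 SE), which did not pass the threshold of 0.05 over all genes (limma adjusted p = 0.21). Without leflunomide replicate 3 the estimate was again 0.31 and CDH2 rose (limma adjusted p = 0.049, or 0.057 when undetected rows stayed in the fit). Under median scaling CDH2 was at −0.27, which was 0.26 above the median of all genes.

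CDH1, the E-cadherin gene of epithelia and of normal melanocytes, was not detected on any array. Its signals were 55.67, 57.29 and 61.79 with DMSO and 59.69, 57.75 and 34.82 with leflunomide, between 0.946 and 1.06 times the negative control mean. Detection p-values were 0.18 to 0.65. Both treatments sat at background, and a level of CDH1 below it cannot be compared.

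CDH3 encodes P-cadherin, a classical cadherin of the basal epidermis. With signals of 68.44, 69.47 and 68.68 on the DMSO arrays and 66.97, 70.53 and 48.88 on the leflunomide arrays, it was just above background. It was detected on 2 of 3 DMSO arrays and on all 3 with leflunomide, with p-values of 0.022 to 0.054. The log2 difference was 0.23 ± 0.16 (SE, limma adjusted p = 0.51), and 0.07 without leflunomide replicate 3, the array on which its normalized value of 5.37 lay above the 4.77 to 4.90 of the other arrays.

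CDH13 encodes T-cadherin, which is anchored in the membrane by a lipid and lacks the catenin-binding tail. Its signals were 313.4, 487.0 and 355.2 with DMSO and 271.3, 378.7 and 102.3 with leflunomide, detected on all 6 arrays. The normalized log2 values ran from 7.91 to 8.32 with DMSO and from 7.83 to 8.16 with leflunomide and overlapped. The difference was −0.07 ± 0.16 (SE, limma adjusted p = 0.83), with a 95% interval from −0.45 to 0.31, and 0.04 without leflunomide replicate 3.

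CDH19 encodes a type II cadherin known from nerve-associated cells of the neural crest lineage. Its row read 155.8, 193.5 and 155.1 with DMSO and 84.40, 111.3 and 44.14 with leflunomide, so that every leflunomide signal lay under every DMSO signal. These are raw signals, and leflunomide replicates 1 and 3 were dimmer as whole arrays. Their mean signals were 261.7 and 128.9, against 317.7 to 370.5 with DMSO. The detection p-values of the CDH19 row, 0.16 to 0.49, kept it out of the genes tested. The row is the mean of a pair of probes, as traced through the second deposited table, and its p-values are not ranks of its signal. The first probe read 260.6, 334.1 and 253.1 with DMSO and 117.3, 168.4 and 71.20 with leflunomide, above the detection limit on all 6 arrays. The second stayed at background, at 50.97 to 57.17 with DMSO and 17.08 to 54.14 with leflunomide.

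The first CDH19 probe was 1.82-fold lower with leflunomide over 6 arrays (log2 −0.86 ± 0.16 SE), not past the threshold over 18326 probes (limma adjusted p = 0.085). Without leflunomide replicate 3 it fell 1.99-fold (log2 −0.99 ± 0.11 SE, limma adjusted p = 2.3e-05). That fit called 18.2% of all probes, against 0.764% with 6 arrays. In the fit of gene rows with no detection filter, the CDH19 row was at −1.25 ± 0.31 (SE, limma adjusted p = 0.17), and without leflunomide replicate 3 at −0.90 ± 0.08 (SE, limma adjusted p = 0.0036). Its log2 values were 6.69, 6.75 and 6.67 with DMSO and 5.69, 5.93 and 4.75 with leflunomide. With no background correction the row was at −0.68 and with control parameters from all rows at −0.13.

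**Figure D2:**
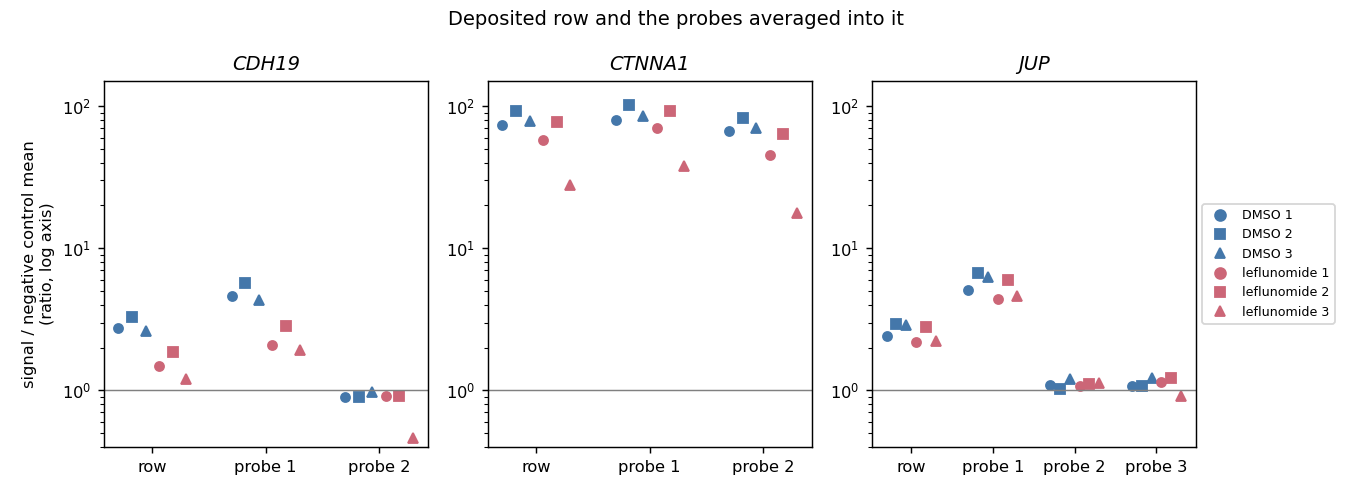
Signal over the negative control mean (ratio without unit, log axis) of the deposited row and of each probe averaged into it, 1 point per array, for CDH19, CTNNA1 and JUP. For CDH19 the leflunomide points lie under the DMSO points on probe 1, while probe 2 lies at or under the control mean (line at 1). Probes 2 and 3 of JUP lie close to that line, mostly a little above it.

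CTNNB1, the beta-catenin gene, showed no difference past the threshold. Its signals were 133.6, 191.2 and 146.8 with DMSO and 124.3, 145.7 and 59.06 with leflunomide, with row p-values of 0.00034 to 0.021. Normalized log2 values of 6.38, 6.73 and 6.55 with DMSO enclosed the 6.64, 6.48 and 6.44 of the leflunomide arrays. The log2 difference was −0.03 ± 0.13 (SE, limma adjusted p = 0.90), with a 95% interval from −0.35 to 0.28, and it was 0.00 without leflunomide replicate 3.

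CTNNA1, which encodes alpha-catenin, was bright, at 4160, 5455 and 4591 with DMSO and 3274, 4629 and 1018 with leflunomide. Replicate 3 was the lowest after normalization as well, at 11.33 against 11.82 to 12.02 on the other 5 arrays. The log2 difference was −0.26 ± 0.18 (SE, limma adjusted p = 0.51), and −0.08 without that array. The row is the mean of a pair of probes that differed in size. The first was at −0.07 (limma adjusted p = 0.82) and the second at −0.49 (limma adjusted p = 0.38), and without leflunomide replicate 3 they were at 0.06 and −0.23 (limma adjusted p = 0.78 and 0.17).

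CTNND1, which encodes p120-catenin, the tail-binding catenin that keeps cadherins at the surface, lay close to background. It read 66.03, 67.13 and 69.19 with DMSO and 63.25, 67.69 and 40.37 with leflunomide, where the row p on replicate 3 was 0.13. The rows of CTNNB1 and CTNND1 average probes that could not be traced. The log2 difference was −0.07 ± 0.10 (SE, limma adjusted p = 0.70), and −0.03 without that array.

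JUP encodes plakoglobin, which serves in adherens junctions and in desmosomes. Its row read 136.7, 174.1 and 170.9 with DMSO and 123.9, 165.2 and 81.41 with leflunomide. The log2 difference was 0.27 ± 0.22 (SE, limma adjusted p = 0.55), and 0.06 without leflunomide replicate 3, whose normalized value of 7.32 lay above the 6.43 to 6.86 of the other 5. The row averages 3 probes, of which only the first was detected on every array, at 287.1, 398.7 and 369.6 with DMSO and 246.4, 357.0 and 169.1 with leflunomide. That probe was at 0.29 (limma adjusted p = 0.58), and 0.03 without replicate 3.

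Read together, the 8 genes tested had a median log2 difference of 0.10 with 6 arrays and 0.05 without leflunomide replicate 3, where all 12345 genes had medians of −0.001 and 0.005. limma called 1 of the 8, CDH11, and none lower, where 1.03% of all genes were called, 0.211% higher and 0.818% lower. Since CDH11 was chosen on this contrast, nothing is read from that count. Without leflunomide replicate 3, CDH11 and CDH2 were called higher and none lower, and that fit called 19.6% of all genes, 9.51% higher and 10.1% lower. Leaving out any other single array left 3 to 7 called genes of all 12345 and none of the 8 (limma, with 1 or 2 of the 8 at an unadjusted p under 0.05). At that unadjusted p, those fits had 1233 to 2190 of all genes. The groups did not overlap for CDH11 and CDH2 among the 8, both higher, and for 29.8% of all genes, 14.5% higher and 15.3% lower. None of the catenins tested passed in either fit, and their 95% intervals reached from −0.70 for CTNNA1 to 0.81 for JUP with 6 arrays.

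**Figure D3:**
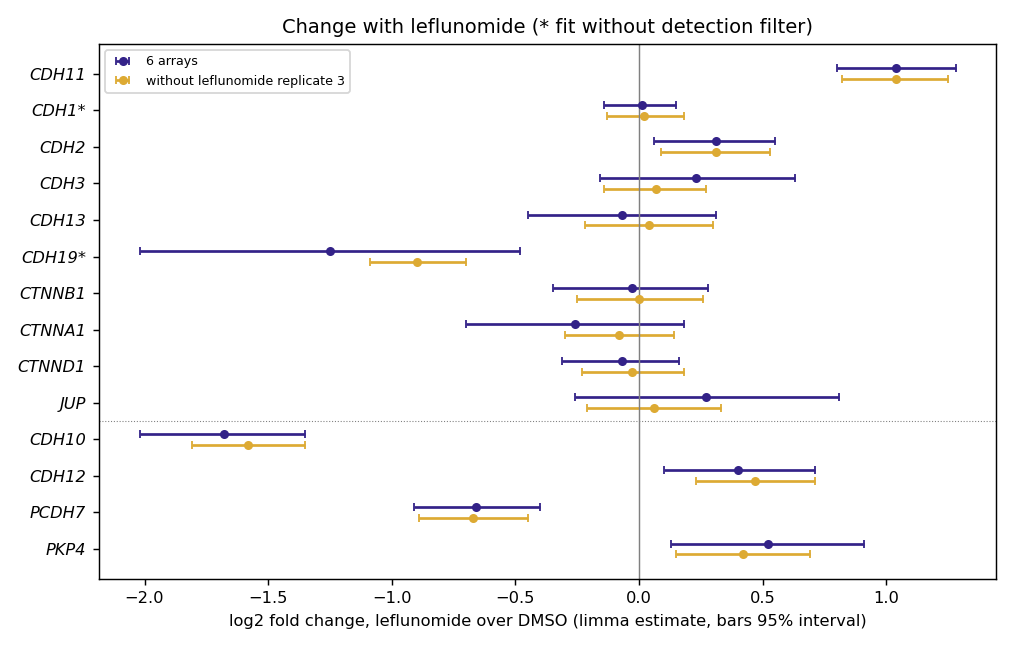
log2 fold change of leflunomide over DMSO as estimated by limma, with 95% intervals, for the 10 genes (above the dotted line) and 4 relatives, with all 6 arrays (dark) and without leflunomide replicate 3 (yellow); CDH1 and CDH19 come from the fit with no detection filter. CDH11 stands at 1.04, CDH10 at −1.68 and CDH19 at −1.25, and the 4 catenins have intervals that include 0.

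Of the remaining cadherin superfamily genes in a list of 30, 28 were in the file and 11 were tested. The share of all genes called, against which the counts of this and the following lists stand, was 1.03% with 6 arrays and 19.6% without leflunomide replicate 3. Counts at an unadjusted p under 0.05 with 6 arrays stand against 2081 of all 12345 genes (limma). CDH10, a type II cadherin of the brain, fell. Its signals were 130.3, 161.7 and 125.3 with DMSO and 61.56, 70.94 and 31.59 with leflunomide, detected on all 3 DMSO arrays and on 1 of 3 leflunomide arrays. Every leflunomide signal lay under every DMSO signal, also after normalization, where 15.3% of all genes lay wholly lower with leflunomide. The fitted difference was 3.21-fold (log2 −1.68 ± 0.14 SE, limma adjusted p = 0.011), and 2.99-fold without leflunomide replicate 3 (limma adjusted p = 1.3e-06). Because CDH10 was not above background on 2 of the 3 leflunomide arrays, these folds rest partly on background values. Leaving out any other array ended the call (limma adjusted p from 0.053 without leflunomide replicate 2 to 0.12 without DMSO replicate 1), as did median scaling (limma adjusted p = 0.15).

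CDH12, another type II cadherin of the brain, read 176.1, 250.9 and 186.8 with DMSO and 197.2, 251.4 and 81.43 with leflunomide. It was at 0.40 ± 0.13 (SE, limma adjusted p = 0.19), and rose 1.38-fold without leflunomide replicate 3 (limma adjusted p = 0.010). CELSR3, a seven-pass cadherin of planar polarity, had a signal of 10.75 on leflunomide replicate 3, below that array's negative control mean, and its log2 difference of −1.43 ± 1.22 (SE) became 0.07 when that array was left out. The 11 genes had a median of −0.03, with 1 called lower, CDH10, and none higher. Without replicate 3 the median was −0.02, and 2 rose (CDH12 and CELSR1, the latter named after seeing its values) and 1 fell. The median with 6 arrays depended on the filter. It was −0.25 when the detection p had to be under 0.01, and 0.25 with detection on all 6 arrays. CDH23, also named after seeing its values, was tested through an averaged row p-value, though none of its 3 probes was above the detection limit on any array.

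Non-clustered protocadherins, which lack the catenin-binding tail, had 4 of 11 genes tested. Their median was −0.30, and −0.26 without leflunomide replicate 3. With 6 arrays it moved with the processing, to −0.15 with no background correction and −0.02 with control parameters from all rows. It was 0.00 with detection on all 6 arrays, and −0.70 under median scaling, where the median of all genes was −0.53. None passed with 6 arrays, 1 having an unadjusted p under 0.05. PCDH7, a row that averages probes, was 1.58-fold lower, at 113.4, 143.6 and 127.0 with DMSO and 78.49, 94.55 and 49.73 with leflunomide (log2 −0.66 ± 0.10 SE, limma adjusted p = 0.057), and it fell 1.59-fold without leflunomide replicate 3 (limma adjusted p = 0.00083). PCDH20 and PCDH18 were at −0.41 and −0.19, or 0.07 and −0.17 without that array, and passed in neither fit.

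Desmosome genes had 6 of 12 tested, with none past the threshold in either fit and 1 at an unadjusted p under 0.05 with 6 arrays (limma). Their median was −0.03, and 0.09 without replicate 3. DSG2, the desmoglein of simple epithelia and many tumour cells, was at −0.44, DSG4 at 0.34 and DSC2 at 0.12. Without replicate 3 these were at −0.29, 0.13 and 0.09. Relatives of the catenins had 4 of 8 tested and a median of 0.25, again with none called over 6 arrays and 1 at an unadjusted p under 0.05. Their median was 0.11 without replicate 3. PKP4, a p120-type armadillo protein, was at 0.52 ± 0.16 (SE, limma adjusted p = 0.18), and rose 1.34-fold without replicate 3 (limma adjusted p = 0.032). CTNNBIP1, an inhibitor of beta-catenin and TCF binding, was at 0.31 and CTNNBL1 at 0.18. Without replicate 3 these were at 0.14 and −0.04.

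Linkers of the adherens junction, such as nectins and actin-binding proteins, had 18 of 23 genes tested. Their median was 0.00, and −0.03 without leflunomide replicate 3. None passed with 6 arrays and 5 had an unadjusted p under 0.05 (limma), while without leflunomide replicate 3 LIMA1 and NECTIN4 fell and IQGAP1 and CDC42 rose. IQGAP1 and CDC42 were named after seeing their values. LIMA1, an actin-bundling partner of alpha-catenin, read 1571, 1829 and 1314 with DMSO and 575.8, 846.1 and 165.1 with leflunomide. It was at −1.14 ± 0.21 (SE, limma adjusted p = 0.080), and fell 1.88-fold without replicate 3 (limma adjusted p = 9.9e-05). NECTIN4, an adhesion receptor of the immunoglobulin family, was detected on all 3 DMSO arrays and on no leflunomide array, which makes it at least 1.17-fold lower (limma adjusted p = 0.070, and 0.00099 without replicate 3). PTPN1, a phosphatase that acts on N-cadherin complexes, read 12.33 on leflunomide replicate 3 and its log2 difference of −1.88 ± 1.64 (SE) became 0.13 when that array was left out.

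Genes of the beta-catenin destruction complex and TCF factors had 11 of 17 tested, none called in either fit and none at an unadjusted p under 0.05 with 6 arrays (limma). Their median was 0.06, and 0.11 without leflunomide replicate 3. AXIN1 and BTRC were not tested because of averaged row p-values, but each had 1 probe above the detection limit. These probes were at 0.62 and 0.01 with 6 arrays (limma adjusted p = 0.13 and 0.99), and rose 1.44-fold and 1.35-fold without leflunomide replicate 3 (limma adjusted p = 0.0048 and 0.031). Both were named after seeing their values. Among the tested genes, DVL2, DVL3 and BCL9L had the largest differences, at 0.51, −0.60 and −1.16, and were at 0.23, 0.03 and 0.07 without replicate 3. Known targets of beta-catenin had 11 of 18 tested and a median of 0.06. NKD1, a Wnt feedback inhibitor, fell 2.00-fold (SE 0.13 on the log2 scale, limma adjusted p = 0.035), from 107.1, 128.3 and 121.7 with DMSO to 71.42, 78.90 and 45.37 with leflunomide, and 1.88-fold without replicate 3 (limma adjusted p = 0.00011). NKD1 was detected on all 3 DMSO arrays and on 2 of 3 leflunomide arrays, so its fold over 6 arrays rests partly on a background value. Its call was lost when any other array was left out (limma adjusted p from 0.13 without leflunomide replicate 2 to 0.21 without DMSO replicate 3). The same held with no background correction, where NKD1 was at −0.47 (limma adjusted p = 0.057).

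The Wnt antagonist DKK1 read 2516, 3072 and 1886 with DMSO and 894.0, 1381 and 244.2 with leflunomide, and was at −1.15 ± 0.25 (SE, limma adjusted p = 0.11). Without replicate 3 it fell 1.86-fold (limma adjusted p = 0.00057). AXIN2, a scaffold gene often used to read the pathway, had a difference of −0.65 ± 0.32 (SE, limma adjusted p = 0.37). Leaving out replicate 3 gave −0.28 (limma adjusted p = 0.095). Without that array 4 of the 11 targets fell and none rose, where 10.1% of all genes fell and 9.51% rose. The 4 were NKD1, DKK1, CCND1 (log2 −0.67) and BAMBI (log2 −0.36). CCND1 and BAMBI were named after seeing their values, and the median of the list was 0.12. These counts are of gene rows. The row of MYC, also named after seeing its values, was at 0.25 there (limma adjusted p = 0.16). It averages a pair of probes, of which the dimmer rose (log2 0.44, limma adjusted p = 0.047) and the brighter was at 0.19 (limma adjusted p = 0.30). That fit called 18.2% of all probes.

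Transcription factors that repress cadherin genes had 9 of 12 tested, with none called over 6 arrays and 2 at an unadjusted p under 0.05 (limma). Their median was 0.23, and 0.09 without leflunomide replicate 3. SNAI2, the Slug repressor of CDH1, read 116.1, 144.8 and 107.9 with DMSO and 75.51, 84.07 and 43.40 with leflunomide, so that the groups did not overlap. Nor did they after normalization, where 15.3% of all genes lay wholly lower with leflunomide. SNAI2 was at −0.96 ± 0.20 (SE, limma adjusted p = 0.096), and fell 1.70-fold without leflunomide replicate 3 (limma adjusted p = 0.00061). TCF3, the E2A factor, was at 0.68 ± 0.26 (SE, limma adjusted p = 0.26), and rose 1.31-fold without replicate 3 (limma adjusted p = 0.024). KLF8 was at 0.51, or 0.19 without that array, and passed in neither fit.

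Proteases that cut cadherins had 14 of 19 tested, with none called over 6 arrays and 3 at an unadjusted p under 0.05 (limma). Their median was 0.07, and −0.03 without leflunomide replicate 3. NCSTN, a subunit of gamma-secretase, was at −0.49 ± 0.14 (SE, limma adjusted p = 0.16), and fell 1.31-fold without leflunomide replicate 3 (limma adjusted p = 0.025). MMP3, the stromelysin, was at 0.64 ± 0.20 (SE, limma adjusted p = 0.19), and rose 1.52-fold in the same fit (limma adjusted p = 0.025). There FURIN, the convertase that matures cadherin precursors, also fell (log2 −0.32, limma adjusted p = 0.044). FURIN was named after seeing its values. The metalloprotease gene ADAM9 was at −0.77 with 6 arrays and −0.26 without replicate 3.

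**Figure D4:**
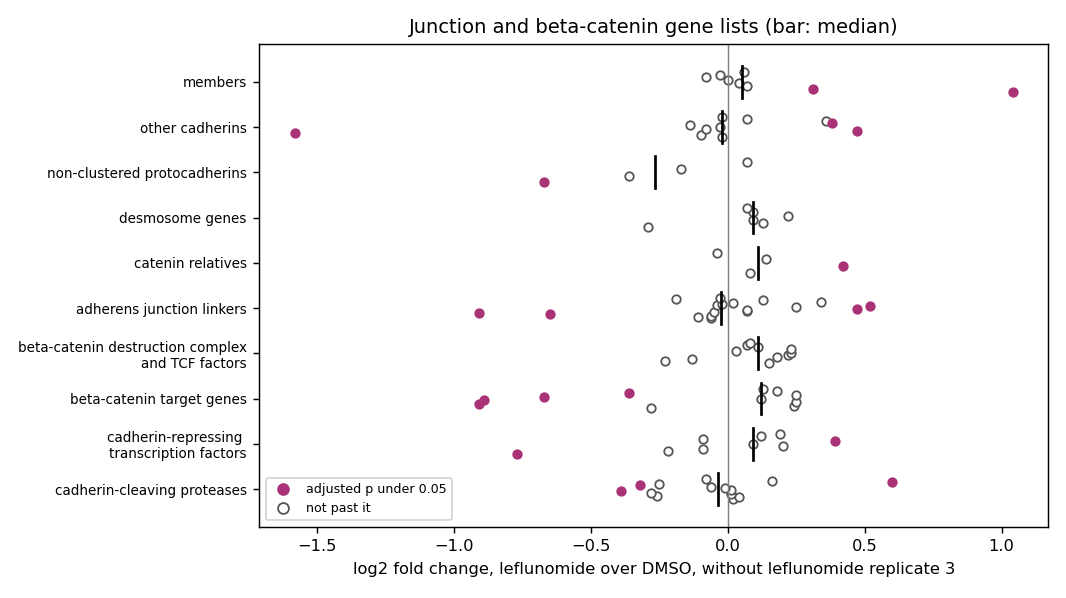
log2 fold change of leflunomide over DMSO without leflunomide replicate 3 for each tested gene (points) of the cadherins and catenins described (members) and of 9 related lists, with filled points at a limma adjusted p under 0.05 and a bar at each list's median. Medians lie between −0.26 for the non-clustered protocadherins and 0.12 for the beta-catenin targets, and CDH10, at −1.58, lies farthest from 0.

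The genes whose pattern over the 6 arrays was most like that of CDH11 were found by Euclidean distance between log2 values centred on each gene's mean. They were the growth factor receptor gene PDGFRB (distance 0.204), the kinase C substrate gene MARCKS (0.227), the chromatin protein gene HMGB1 (0.250), the noncoding RNA host gene SNHG5 (0.281) and the nuclear receptor gene NR2F1 (0.286). Their log2 differences were 0.93, 0.98, 0.89, 0.94 and 1.20, and since CDH11 was picked for its rise these values are a description. HMGB1 has near-identical copies elsewhere in the genome that a probe may also bind. PDGFRB was also among the fibroblast markers, of which 5 of 8 were tested, with a median of −0.08. In that list DCN was at −0.72 and LUM at −1.10 and THY1 was detected on no array. Whether these markers bear on the level of CDH11 was not tested.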

How the data were processed

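RNA of 6 A375 samples was labelled as biotinylated cRNA and read on Illumina bead arrays, 3 per treatment as the labels number them. The first deposited table gives, per gene and array, the intensity as a mean bead signal on a linear scale with no normalization, and a detection p-value per array that the authors' software took against negative control beads, per the file headers. GenomeStudio made them, per the submitters' processing notes, with its version not given in the sources used here. A second deposited table holds linear intensity values per probe, which differ from the first by 1 factor per array (0.784 to 2.27). It carries no gene names, so a gene row that is a mean of probes was traced to the 2 or 3 probes whose mean equals it on all 6 arrays within a relative 3e-06.

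Background was corrected in R 4.3.3 with limma 3.58.1 by the normexp model with an offset of 16. Its control parameters were inferred from the detection p-values of the 32290 rows where that p-value is a rank among 759 control bead types. Quantile normalization followed, and rows with a detection p under 0.05 on at least 3 of 6 arrays stayed in. Older symbols were replaced through the RefSeq table of GRCh38.p14, with 14193 rows current, 3625 renamed through a synonym and 7598 left as in the file. Where renaming joined rows, the brightest was kept, which left 12345 genes. Treatments were compared with limma's linear model and empirical Bayes moderation (two-sided), with Benjamini-Hochberg adjustment over the 12345 genes, a threshold of 0.05 and no replicate block.

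The genes and lists were chosen with earlier results of these data known. The 10 genes are always given. Of each list, up to 3 tested genes with the largest absolute change and any called gene are named, and 5 genes nearest to CDH11. Provisional symbols are not named, and other names are said to be chosen after their values were seen. Simulated arrays of the 12345 genes took each gene's mean and spread from the arrays without leflunomide replicate 3. In them limma called 95 of 100 genes changed by a log2 of 1 and 100 of 100 changed by 2. It also called 10 unchanged genes. The simulated arrays numbered 3 per treatment, while the fit without leflunomide replicate 3 has fewer with leflunomide. The recovery of that fit was therefore not simulated, nor was that of the fit that includes leflunomide replicate 3. The precision is limited by the number of arrays. Alternatives covered background, normalization, detection filter, variance model, a replicate block and leaving out each array. Probe values, also of list genes, and the fit without filter together with leaving out leflunomide replicate 3, were added after seeing the data.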

Additional observations from a re-analysis of the deposited data

How the results depend on the processing

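Leflunomide replicate 3 and the scaling set most limits. Genes called (127) became 323 with cyclic loess, 2518 with array weights (whose iteration stopped before convergence), 4 with the replicate number as a block, 0 under median scaling (limma, 1675 at an unadjusted p under 0.05) and 3 to 2416 when each array was left out. Of the 8 genes tested here, the 1 called became 2 with array weights, 0 with the replicate block (1 at an unadjusted p under 0.05), 0 under median scaling (none at an unadjusted p under 0.05) and 0 to 2 when arrays were left out. The 2 list genes called became 1 with normexp without controls, no background correction, control parameters from all rows, the scaled table or detection on all 6 arrays, 4 with cyclic loess or no filter, 17 with array weights, 0 under median scaling or the block, and 0 to 18 when arrays were left out.

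CDH11, at 1.04, was at 0.71 with normexp without controls, 0.67 with no background correction, 0.18 with control parameters from all rows, 0.39 under median scaling, 0.64 in the scaled table, 0.77 with an offset of 50 and 1.01 to 1.09 when arrays were left out. CDH19, at −1.25, was at −0.74 with normexp without controls, −0.68 uncorrected, −0.13 with control parameters from all rows, −0.81 with an offset of 50 and at −1.48 to −0.90 when arrays were left out. CDH2 was at −0.27 under median scaling, at 0.34 with array weights (limma adjusted p = 0.021) and at 0.27 to 0.36 with arrays left out. CDH13 and CTNNB1 were both at 0.06 with array weights, and at −0.18 to 0.04 and −0.12 to 0.05 with arrays left out. JUP was at −0.40 under median scaling. Only median scaling moved the median of all genes by over 0.1, to −0.53, and relative to it CDH2 and JUP were 0.26 and 0.12 higher. The cause of these moves was not tested. CDH1, CDH3, CTNNA1 and CTNND1 kept their direction and their side of the threshold under the alternatives run, except that CDH1, not detected, was at −0.01 with cyclic loess and at −0.03 to 0.04 with arrays left out, and that 1 probe of CTNNA1 was at 0.06 without leflunomide replicate 3.

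Replicates that share a number correlated at −0.00811, 0.205 and 0.214 in their deviations from the treatment means. Those with different numbers ran from −0.237 to 0.178. These values do not settle whether the numbers pair the arrays, and the main fit took no pairing. Each number holds an array of either treatment, so a replicate block cannot change any estimate, only its SE and p-value. With the block CDH10, at −1.68, was not past the threshold (limma adjusted p = 0.095). NKD1, 2.00-fold lower, lost its call under the block (limma adjusted p = 0.18) and had log2 values of −0.52, −0.47, −0.07 and −0.44 with normexp without controls, no background correction, control parameters from all rows and the scaled table, none past the threshold. The scaled table gives no row for CDH19, CTNNB1, CTNNA1, CTNND1 and JUP, and the probes of CTNNB1 and CTNND1 could not be traced.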

Other observations

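The repressor SNAI2 and the Wnt antagonist DKK1 were each measured by a pair of probes that could be traced in the scaled table. The SNAI2 probes were at −1.23 and −0.52 with 6 arrays (limma adjusted p = 0.12 and 0.17) and fell 1.92-fold and 1.37-fold without leflunomide replicate 3 (limma adjusted p = 5.8e-05 and 0.017). The bright DKK1 probe read 4950, 6043 and 3693 with DMSO and 1716, 2690 and 440.1 with leflunomide, and was at −1.21 (limma adjusted p = 0.11), while the dim one, at 78.76 to 102.1 with DMSO, was at −0.22 (limma adjusted p = 0.55). Without replicate 3 the bright probe fell 1.93-fold (limma adjusted p = 0.00015) and the dim one was at −0.31 (limma adjusted p = 0.12). For PKP4, the brighter probe rose 1.34-fold without replicate 3 (limma adjusted p = 0.033), and the other was at 0.25 (limma adjusted p = 0.15).

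List genes left out of the gene fit through an averaged row p-value numbered 28, and 9 of them had a probe in the scaled table that could be tested. None of their 13 probes passed with 6 arrays (limma, 3 at an unadjusted p under 0.05), and without leflunomide replicate 3, 4 rose and 1 fell, in a fit that called 18.2% of all probes. The probe that fell belongs to DSC3, the desmocollin of stratified epithelia. It read 111.9, 154.5 and 136.9 with DMSO and 87.37, 103.2 and 32.97 with leflunomide, and was at −0.93 with 6 arrays (limma adjusted p = 0.31). Leaving out replicate 3 it fell 1.41-fold (limma adjusted p = 0.013). Besides AXIN1 and BTRC, 1 probe each of RAC1, a small GTPase gene, and VCL, the vinculin gene, rose without replicate 3 (log2 0.43 and 0.36, limma adjusted p = 0.021 and 0.029). The other tested probes of these genes were at −0.05 and 0.18 there and did not pass. FAT3, a giant cadherin gene, was detected on 2 DMSO arrays and no leflunomide array, and was not tested. It was near background, at 65.80, 72.60 and 76.65 with DMSO and 60.33, 66.88 and 38.75 with leflunomide, so no size of difference is given. These genes were named after seeing their values.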
